A study of Mus musculus with 5 samples.

Results

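The clustered protocadherins are cell adhesion proteins whose genes lie side by side on mouse chromosome 18 in an alpha, a beta and a gamma cluster. Members were taken as the protein-coding genes of GENCODE M21 (build GRCm38) with the symbol Pcdha, Pcdhb, Pcdhga, Pcdhgb or Pcdhgc and a number, or Pcdhac1 or Pcdhac2. This gave 57 of the 55421 genes of the count table. The alpha cluster (14 members) spans chr18:36930184-37187661, the beta cluster (22 members) chr18:37264938-37524479 and the gamma cluster (21 members) chr18:37661793-37841873, all on the plus strand. A pair of gene identifiers carry the symbol Pcdha11 in that annotation. The RefSeq accession of ENSMUSG00000007440.10 belongs to Pcdha10, the name used for it here, and ENSMUSG00000102206.5 is Pcdha11. Pcdhgb8, annotated as a polymorphic pseudogene, is not a member.

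Each neuron is known to transcribe a small, partly random set of these genes, and the proteins bind their own kind on a neighbouring membrane. Branches of the same neuron thereby recognise and avoid each other, and the dendrites of Purkinje cells, from which the cerebellar cortex sends its output, need the gamma members for their spacing. In the alpha and gamma clusters each member has a variable exon with its own promoter, spliced to constant exons that all members of the cluster share, while beta genes have a single coding exon. CTCF and cohesin loop the promoters to distant enhancers. The last members of the alpha and gamma clusters, called C-type (Pcdhac1, Pcdhac2, Pcdhgc3, Pcdhgc4 and Pcdhgc5), are known to be chosen less randomly than the alternate members before them.

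Bulk RNA-seq was made from whole mouse cerebellum at postnatal day 14. The 3 Yy1 cKO libraries had the genotype Pcp2 Cre/+; Yy1 fx/fx, with Cre under the Purkinje cell promoter Pcp2 and both copies of Yy1, the gene of the zinc finger factor YY1, floxed. The 2 control libraries were from littermates with the genotype Pcp2 Cre/+; Yy1 fx/+. These carry the same Cre and 1 floxed copy, so no library comes from mice with both copies intact in Purkinje cells. The sexes were mixed, and nothing in the labels says that each library came from a separate animal, so a p-value speaks only for the spread among these libraries, which may be technical.

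Libraries held 17424860 to 20305705 counts. Levels are given as CPM, counts relative to the library's total after TMM scaling. Yy1 itself stood at 74.6 and 73.7 CPM in controls, against 73.4, 81.7 and 75.8 CPM in Yy1 cKO libraries (0.05 ± 0.0649 as a log2 fold change with its standard error, edgeR adjusted p = 0.610). Whole tissue also holds cells without Cre, so this level does not check the labels. All 19 Purkinje cell markers and all 13 granule neuron markers examined had counts. The library Yy1 cKO 3 stood apart from its group: the mean chi-square per gene was 16.7 and 16.6 between it and Yy1 cKO 1 and 2, and 3.51 between those libraries.

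The annotation sets how much of each member a read can identify. All 14 alpha members share 2860 exonic bases and all 21 gamma members share 2116, while beta members share none except Pcdhb21 and Pcdhb22, which overlap by 455 bases. Bases that no other gene on the strand holds made up a median of 46.4% of a member's exons in the alpha cluster and 55.4% in the gamma cluster, and all of them in 20 of 22 beta members. Pcdha4 was the extreme, with 494 such bases (8.56%), as its variable exon is also annotated to the read-through gene Gm42416. Pcdha4 had 4 to 16 counts, whereas its neighbours Pcdha3 and Pcdha5 had 71 to 113, and Gm42416 had 0 in every library. A member with the same constant exons thus had few counts, so reads in the shared exons were not added to each member. The counts of alpha and gamma members are those of the variable part, and the output of the constant exons was not analysed here.

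Identical sequence elsewhere was limited at the length of a read. Only the unshared exonic bases of each member were searched, and only exact matches were counted. Similar stretches with a mismatch were not measured. Of their stretches of 150 bases, at most 5.49% in any alpha, 0.222% in any beta and 5.74% in any gamma member occurred in another gene's transcript. Antisense genes of the locus were left out. For stretches of 50 unshared bases the highest shares were 28.6% in Pcdha6, 11.99% in Pcdhb12 and 16.8% in Pcdhgb1, so reads with a short match could be split or dropped. Antisense genes lie over exons of 4 alpha, 1 beta and 8 gamma members. The unshared exon of Pcdhga10 lies within antisense Gm26672, and Pcdhga10 had 349 to 449 counts against 71 to 101 for Gm26672. In Pcdha11 3338 of 4606 unshared bases lie under antisense Gm10544 and Gm10545, and in Pcdha12 531 of 2475 lie under Gm10545. Gm10545 had 11 to 28 counts, with a log2 fold change of -0.99 ± 0.362 in Yy1 cKO (edgeR adjusted p = 0.0772). Whether antisense reads entered the counts of members was not tested.

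The gamma cluster gave the most RNA per length. As CPM per kilobase of unshared exon, averaged over the 5 libraries, the median tested member stood at 6.26 in the gamma, 2.37 in the beta and 2.13 in the alpha cluster. The order of alpha and beta differed between groups. The alpha median was 2.36 and 2.72 in controls, against 1.94, 1.75 and 1.79 in Yy1 cKO. The beta median was 2.27 and 2.33 in controls, against 2.43, 2.30 and 2.23 in Yy1 cKO. Of the 21 gamma members, 17 were above the highest beta member. Pcdhgc3, a C-type member known to promote dendrite branching and to bind the Wnt regulator Axin1, was far above the rest at 57.4. The C-type member Pcdhac2, known for spacing serotonergic axons, came next at 14.4, followed by Pcdhga11 at 11.01 and Pcdhgb6 at 9.97. The other C-type members lay among the alternate ones: Pcdhgc4, which keeps interneurons alive, at 8.05, Pcdhgc5 at 3.47 and Pcdhac1 at 3.13. The highest beta members were Pcdhb16 (4.59), Pcdhb17 (4.25) and Pcdhb20 (3.91), and the highest alternate alpha member was Pcdha12 (4.09).

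**Figure D1:**
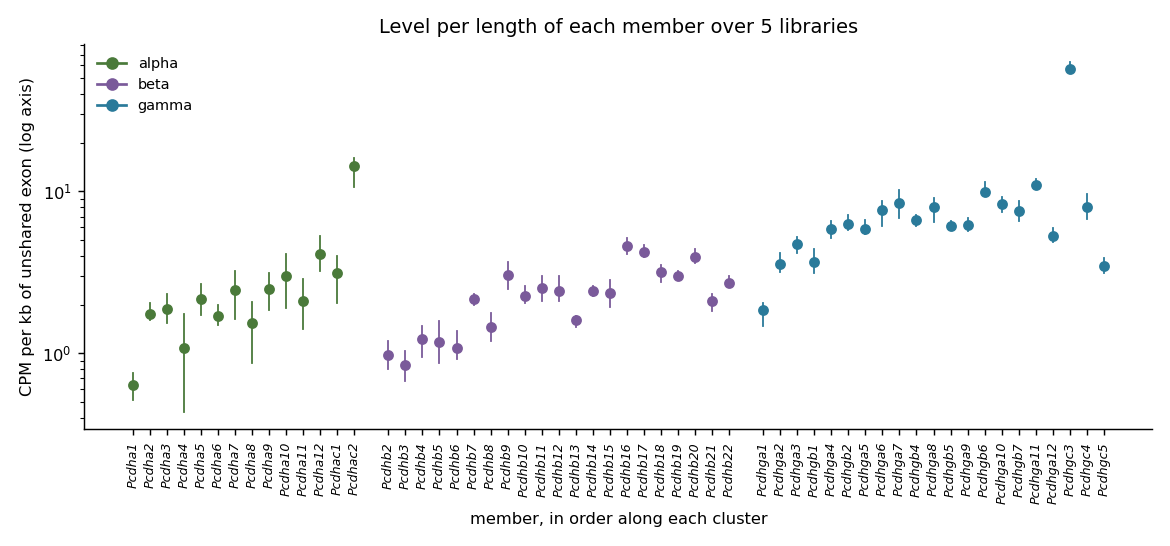
Level of each member in CPM per kilobase of unshared exon (log axis), in order along each cluster. Points are means over the 5 libraries, and lines run from the lowest to the highest library. Pcdhgc3 at 57.4 and Pcdhac2 at 14.4 stand above all others, and 17 of 21 gamma members lie above the highest beta member.

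Members nearer the end of a cluster tended to be higher. The Spearman correlation of position with the control level per length was 0.84 over the 12 alternate alpha members, 0.75 over the 21 tested beta members and 0.67 over the 18 gamma A and B members. These are descriptions across genes that share libraries. Together the members took 0.0990 and 0.0940% of all counts in controls, against 0.0905, 0.0863 and 0.0862% in Yy1 cKO. These shares are of raw counts and depend on the scaling. After TMM scaling the members summed to 957 and 913 CPM in controls, against 924, 892 and 874 CPM in Yy1 cKO, and overlapped. The alpha cluster gave 13.8 and 14.1% of the members' counts in controls and 12.5, 12.1 and 9.98% in Yy1 cKO libraries, with no overlap.

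In Yy1 cKO cerebella the last 4 alternate alpha members fell: Pcdha9 (-31.8%), Pcdha10 (-36.6%), Pcdha11 (-38.8%) and Pcdha12 (-35.8%). The beta member Pcdhb5 fell too (-34.02%), and no gamma member was called. Genes were called with edgeR's quasi-likelihood test when the p adjusted by Benjamini-Hochberg over 20388 genes was under 0.05. Of 56 tested members 5 were called, all lower. Among all genes tested 23.4% were called, 12.6% as lower and 10.7% as higher. Among the 18842 genes within the members' range of mean CPM these shares were 22.6%, 12.8% and 9.81%. The members' 5 calls were no excess over this background. In whole tissue, fewer cells of a type and less RNA per cell cannot be told apart.

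Markers of several cell types moved in the same libraries, in which 12.6% of all genes tested were called lower and 10.7% higher. All 13 markers of granule cell precursors and dividing cells fell, with a median log2 fold change of -4.22, and their summed level was 706 to 785 CPM in controls and 60.2 to 64.9 CPM in Yy1 cKO. Atoh1, which specifies these precursors, had 16 and 19 counts in controls, and was at 0 in Yy1 cKO 1 and 3 and at 1 in Yy1 cKO 2. Of 12 tested choroid plexus and vascular markers 6 fell and 2 rose (summed 443 to 522 against 300.1 to 340.0 CPM). Of 18 glia markers 6 fell and 3 rose, and their summed level overlapped between groups (9069 to 9254 against 8975 to 10047 CPM).

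Some neuron markers rose, beside 10.7% of all genes tested. Of 19 Purkinje cell markers 6 rose (6083 to 6138 against 7274 to 8464 CPM), of 13 granule neuron markers 8 rose and 1, Pax6, fell (6334 to 6394 against 7613 to 8022 CPM), and of 12 inhibitory interneuron markers 6 rose (1110 to 1165 against 1546 to 1626 CPM). Of 8 tested microglia markers none was called, and none had an unadjusted edgeR p under 0.05. The part of these shifts in the values of the protocadherins was not tested.

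Pcdha12 (ENSMUSG00000103310.1) stood at 13.2 and 12.6 CPM in controls, against 8.81, 7.99 and 8.001 CPM in Yy1 cKO. All Yy1 cKO libraries lay well below both controls and close together. The log2 fold change was -0.64 ± 0.115 (SE; edgeR adjusted p = 0.00344). Pcdha11 stood at 11.8 and 13.3 CPM in controls, against 8.30, 8.27 and 6.50 CPM in Yy1 cKO. The groups did not overlap, Yy1 cKO 3 was the lowest, and the log2 fold change was -0.71 ± 0.142 (edgeR adjusted p = 0.00601).

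Pcdha10 stood at 8.92 and 10.3 CPM in controls, against 6.34, 7.17 and 4.78 CPM in Yy1 cKO, a log2 fold change of -0.66 ± 0.177 (edgeR adjusted p = 0.0249). Pcdha9 stood at 7.52 and 7.81 CPM in controls, against 4.58, 5.20 and 5.91 CPM in Yy1 cKO, a log2 fold change of -0.55 ± 0.158 (edgeR adjusted p = 0.0316). Neither overlapped between groups, and in Pcdha9 Yy1 cKO 3 was the highest of its group. Leaving out single libraries ended several calls but kept the sizes. Over the 5 such fits the log2 fold change was -0.65 to -0.46 for Pcdha9, -0.79 to -0.51 for Pcdha10, -0.79 to -0.60 for Pcdha11 and -0.69 to -0.61 for Pcdha12. Calls over all genes went from 4762 to 2187 without either control. Without control 1 only Pcdha11 was still called among the members (adjusted p = 0.0344), and without control 2 only Pcdha12 (adjusted p = 0.0321). Pcdha9 was also lost without Yy1 cKO 1 (adjusted p = 0.106) and Yy1 cKO 2 (adjusted p = 0.0840) and by DESeq2 (adjusted p = 0.0905), and Pcdha10 without Yy1 cKO 1 (adjusted p = 0.0608).

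None of the first 8 alternate alpha members passed. Pcdha7 (-0.50 ± 0.202, edgeR adjusted p = 0.105) and Pcdha8 (-0.61 ± 0.270, adjusted p = 0.143) had log2 fold changes of a size like that of the called members, with no overlap. The value of Pcdha8 depended on the library: it was -0.91 and called without Yy1 cKO 1 (adjusted p = 0.0385), and -0.40 without Yy1 cKO 3 (adjusted p = 0.198). Pcdha3, Pcdha5 and Pcdha6 had values of -0.32, -0.27 and -0.31. Pcdha1 and Pcdha2, at the start of the cluster, were the only alternate members with positive values, 0.17 ± 0.290 and 0.03 ± 0.187, and neither kept its sign in every fit that left out a library. Pcdha4 had the most negative value of any member, -1.09 ± 0.504 (adjusted p = 0.155), on 16 and 13 counts in controls, against 12, 5 and 4 in Yy1 cKO, and ranged from -1.67 to -0.83 over the fits that left out a library.

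**Figure D2:**
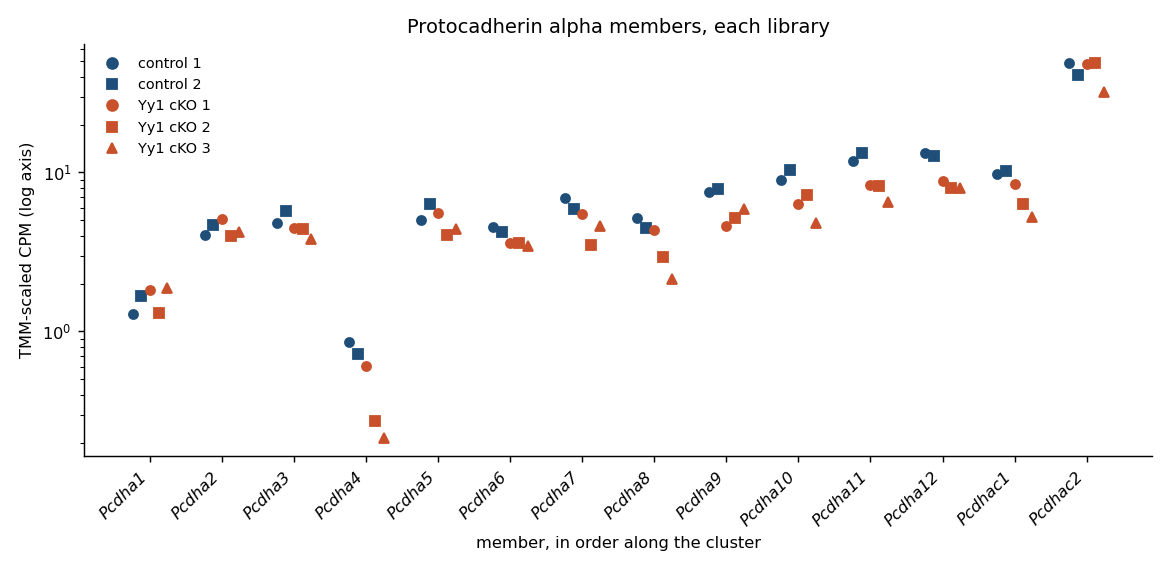
TMM-scaled CPM (log axis) of the 14 alpha members in each of the 5 libraries, in order along the cluster, with controls in blue and Yy1 cKO in orange. From Pcdha6 to Pcdhac1 all Yy1 cKO points lie below both control points, while those of Pcdha1, Pcdha2, Pcdha5 and Pcdhac2 overlap.

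The C-type alpha members gave values far apart. Pcdhac1 stood at 9.83 and 10.2 CPM in controls, against 8.46, 6.30 and 5.21 CPM in Yy1 cKO, with no overlap and a log2 fold change of -0.59 ± 0.189 that just missed the threshold (edgeR adjusted p = 0.0508). It was called without Yy1 cKO 1 (edgeR adjusted p = 0.0134) and without Yy1 cKO 3 (edgeR adjusted p = 0.0477). It was not called without Yy1 cKO 2 (edgeR adjusted p = 0.144) or by DESeq2 (adjusted p = 0.0856). The log2 fold change of Pcdhac1 was -0.62 without control 1 and -0.56 without control 2. Pcdhac2, the most abundant alpha member, stood at 48.4 and 41.2 CPM in controls, against 47.8, 48.9 and 32.1 CPM in Yy1 cKO. Its groups overlapped, Yy1 cKO 3 alone was low, and the log2 fold change was -0.06 ± 0.207 (edgeR adjusted p = 0.876). The difference between the changes of Pcdhac1 and Pcdhac2 was not tested.

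Over the whole cluster, 10 of 14 alpha members were lower in Yy1 cKO without overlap, as were 27.0% of all genes tested. The median log2 fold change was -0.53 in the alpha, -0.10 in the beta and 0.07 in the gamma cluster, beside 0.00 over all genes tested. Across the 15 other settings the alpha median lay between -0.61 and -0.42, the beta median between -0.17 and -0.04, and the gamma median between 0.00 and 0.15. Members share libraries and a locus, so they are not separate observations of the genotype.

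**Figure D3:**
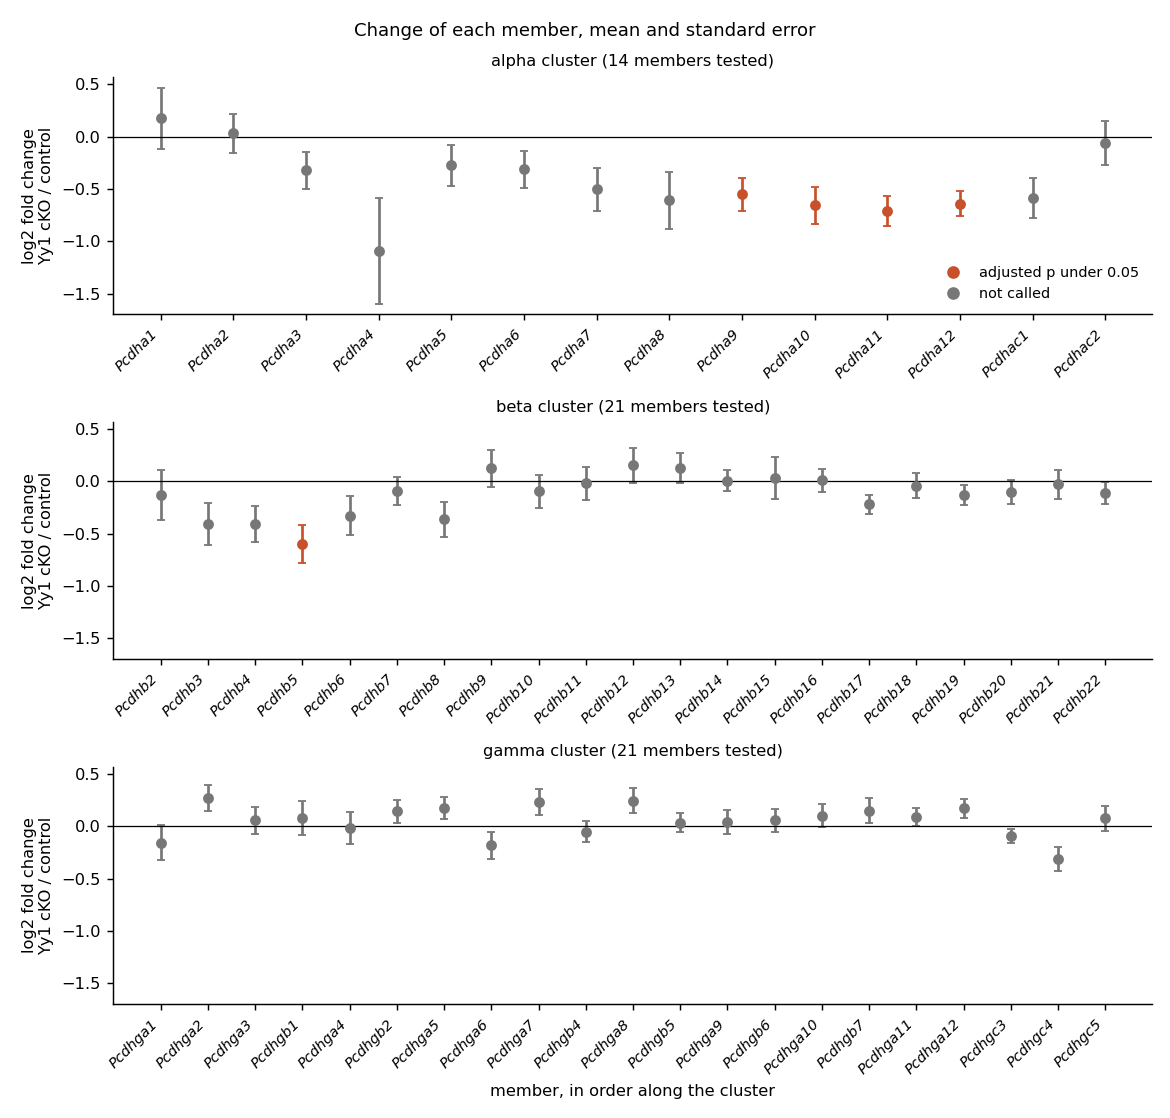
Log2 fold change of Yy1 cKO over control with its standard error for the 56 tested members, in order along the alpha, beta and gamma clusters (called members in orange, others in grey). Pcdha9 to Pcdha12 and Pcdhb5 are the 5 members called, and all gamma values lie between -0.31 and 0.27.

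Log2 fold changes were more negative towards the end of the alternate alpha members. The Spearman correlation of position with log2 fold change was -0.69 over all 12, and -0.94 over the 11 without Pcdha4, left out after its value was seen. Over the 21 tested beta members the same correlation was 0.39, and over the 18 gamma A and B members 0.17, both of the opposite sign. Alpha levels were also higher along the order, so position and level cannot be told apart. In a split made after the values were seen, Pcdha1 to Pcdha6 summed to 20.6 and 23.4 CPM in controls, against 21.1, 17.6 and 17.99 CPM in Yy1 cKO, and overlapped. Pcdha7 to Pcdha12 summed to 53.5 and 54.4 CPM in controls, against 37.8, 35.1 and 31.9 CPM in Yy1 cKO, a change of -35.2% in the mean with no overlap. Each of these 6 members was already lower without overlap, so their sum could not have overlapped.

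The ratio of members within a library needs no scaling. The alternate alpha members gave 0.123 and 0.141 counts per gamma count in controls, against 0.101, 0.0924 and 0.0859 in Yy1 cKO, with no overlap. Per count of Pcdhac2 they gave 1.53 and 1.89 in controls, against 1.23, 1.08 and 1.56 in Yy1 cKO. Here Yy1 cKO 3 lay within the range of the controls, Pcdhac2 being low in it too. Yy1 cKO 3 held the lowest value of 8 of the 14 alpha members, and of 9 of 21 tested beta and 2 of 21 gamma members.

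In the beta cluster only Pcdhb5 (ENSMUSG00000063687.3) was called. It stood at 4.84 and 5.58 CPM in controls, against 3.77, 3.45 and 3.06 CPM in Yy1 cKO, with no overlap and a log2 fold change of -0.60 ± 0.182 (edgeR adjusted p = 0.0405). The call was lost on leaving out any single library, with adjusted p from 0.0555 (without Yy1 cKO 3) to 0.243 (without control 2). The genes on either side did not pass: Pcdhb4 had -0.40 ± 0.173 (adjusted p = 0.125) and Pcdhb6 -0.33 ± 0.186 (adjusted p = 0.249). Pcdhb3 had -0.41 ± 0.201 (adjusted p = 0.181) and Pcdhb8 -0.36 ± 0.164 (adjusted p = 0.148).

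The most abundant beta members gave values nearer 0. Pcdhb16 stood at 23.9 and 23.9 CPM in controls, against 26.9, 23.9 and 21.4 CPM in Yy1 cKO, a log2 fold change of 0.01 ± 0.1098. Pcdhb17 stood at 21.5 and 21.7 CPM in controls, against 18.4, 18.8 and 18.6 CPM in Yy1 cKO, without overlap but short of the threshold (-0.22 ± 0.0904, edgeR adjusted p = 0.116). Pcdhb20 had -0.10 ± 0.113, and its groups overlapped. In all, 7 beta members were lower and 1, Pcdhb13, was higher without overlap, beside 27.0% and 25.2% of all genes tested, so the count of lower ones lies near the background. Pcdhb1, the first of the cluster, had 2 to 6 counts and was not tested. The summed cluster stood at 224 and 233 CPM in controls, against 228, 213 and 206 CPM in Yy1 cKO, and overlapped.

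No gamma member was called by edgeR with the settings used here, nor by DESeq2, limma-voom or limma-trend. A single one, Pcdhgc4, had an unadjusted edgeR p under 0.05, as had 35.1% of all genes tested. Pcdhgc4 stood at 33.7 and 29.7 CPM in controls, against 23.4, 24.1 and 29.00 CPM in Yy1 cKO. Control 2 lay just above Yy1 cKO 3, and the log2 fold change was -0.31 ± 0.112 (edgeR adjusted p = 0.0741). Without Yy1 cKO 3 it was -0.41 and was called (edgeR adjusted p = 0.00172). Without Yy1 cKO 1 and 2 it was -0.25 and -0.27 and not called (edgeR adjusted p = 0.209 and 0.192). Leaving out control 1 gave -0.22, and leaving out control 2 gave -0.40.

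Pcdhgc3 stood at 214 and 189 CPM in controls, against 186, 197 and 184 CPM in Yy1 cKO. The groups overlapped, with a log2 fold change of -0.09 ± 0.0672 (edgeR adjusted p = 0.370). Pcdhgc5 overlapped too (0.07 ± 0.121). Of the 18 gamma A and B members 14 had positive values, none called. Among these Pcdhga2 (0.27 ± 0.125, adjusted p = 0.152), Pcdhga8 (0.24 ± 0.115, adjusted p = 0.164), Pcdhga12 (0.17 ± 0.0941, adjusted p = 0.234) and Pcdhga5 (0.18 ± 0.105) were higher without overlap, as were 25.2% of all genes tested. Pcdhga8 was at 0.40 without control 1 and 0.10 without control 2. Pcdhga7, Pcdhgb6 and Pcdhga11 had values of 0.23, 0.06 and 0.09 and overlapped, with Pcdhga7 at 0.40 without control 1 and 0.08 without control 2. The summed cluster stood at 601 and 551 CPM in controls, against 582, 571 and 581 CPM in Yy1 cKO, and overlapped. Standard errors were 0.0672 to 0.170 here, so small changes would not have been detectable.

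**Figure D4:**
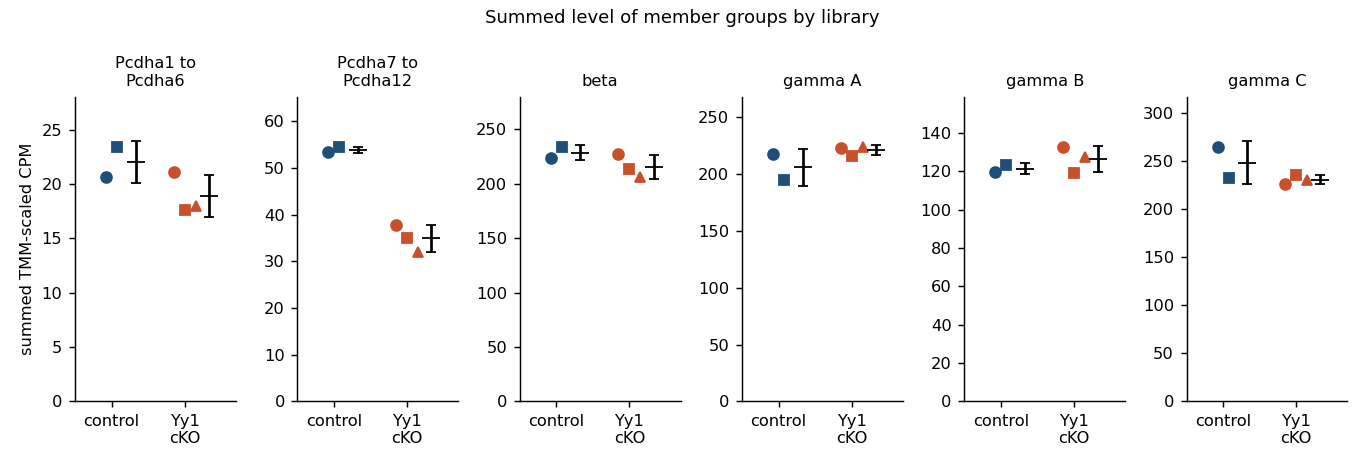
Summed TMM-scaled CPM of groups of members in each of the 5 libraries, with controls in blue, Yy1 cKO in orange and the mean and SD of each group in black. Pcdha7 to Pcdha12 sum to 53.5 and 54.4 CPM in controls and to between 31.9 and 37.8 CPM in Yy1 cKO. The alternate alpha members were split after their values were seen.

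Of 22 matched chromatin regulators, among them factors known at this locus, 1 rose and none fell, beside 10.7% and 12.6% of all genes tested. An unadjusted edgeR p under 0.05 was found for 3 of the 22, beside 35.1% of all genes tested. The median log2 fold change of the list was 0.03. The riser was Mau2, a subunit of the cohesin loader, from 131 ± 2.36 to 158 ± 11.2 CPM (SD, n = 2 and 3, edgeR adjusted p from all genes = 0.0177). Scaling by library size alone ended this call (edgeR adjusted p = 0.0777). It was also lost without control 1 and without control 2, where the log2 fold change was 0.25 and 0.29. Ctcf had 0.09 ± 0.0569 (adjusted p = 0.306) and Rad21, a cohesin subunit, 0.09 ± 0.0618 (adjusted p = 0.318).

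Of 12 protocadherins encoded outside the clusters 6 fell and none rose, beside 12.6% and 10.7% of all genes tested (median -0.32). Pcdh7 fell from 81.99 and 79.9 CPM to 53.9, 57.4 and 55.5 CPM (-0.54 ± 0.0597, edgeR adjusted p = 0.000201), and Pcdh11x from 25.5 and 23.4 CPM to 13.7, 15.1 and 14.4 CPM (-0.76 ± 0.0989). Neither overlapped. Pcdh12, a protein of blood vessels, had -1.59 ± 0.283 and Pcdh18 -0.74 ± 0.156. Leaving out control 1 ended both calls (adjusted p = 0.0538 and 0.0725), and that of Pcdh18 also without control 2 (adjusted p = 0.0532).

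Of 26 partners and signalling proteins of clustered protocadherins 4 rose and 4 fell (median -0.02). Among all genes tested 10.7% were called higher and 12.6% lower, so these counts lie near the background. Marcks, a membrane protein that links to actin, had -1.17 ± 0.0575, and Adam10, the protease that sheds the extracellular part of gamma members, -0.50 ± 0.0556 (edgeR adjusted p = 0.000207). The receptor kinase Ret (0.40 ± 0.0870) and Cyfip2 (0.47 ± 0.0623), a subunit of the WAVE actin complex, were among those that rose. The call of Ret was lost without control 1 (adjusted p = 0.0919). Axin1 did not pass (0.11 ± 0.0772, adjusted p = 0.367).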

How the data were processed

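Per the labels, total RNA was depleted of ribosomal RNA, made into strand-specific libraries and read as 150 bp pairs. The submitters' processing notes list Trimmomatic 0.39, STAR 2.7.1a, featureCounts, DESeq2 1.26.0, FastQC 0.11.8 and GRCm38. No source used here gives the strand setting or the handling of multiply matching reads. The deposited raw table holds counts per gene. The deposited normalized table holds a signal equal to the raw count divided by 1 constant per library (0.969 to 1.07) and served 1 alternative.

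Of 55421 identifiers 54587 matched GENCODE M21 with their version, 567 without it and 267 not at all. Libraries held 17424860 to 20305705 counts. edgeR 4.0.16 in R 4.3.3 was fitted to raw counts of all 5 libraries (TMM, filterByExpr, robust dispersion, no covariate), which kept 20388 genes at a common biological coefficient of variation of 10.5%, and was tested on simulated data. The genes named were the C-type members, the 5 with the smallest p and the 3 with the highest level per length in each cluster, untested members and up to 4 of each other list by p. Other genes named complete the account of the members and were chosen after their values were seen. The members, lists and tests were chosen with earlier results of these data known. Alternatives were other scalings, filters and tools (DESeq2 1.42.0, limma 3.58.1), a replicate block and leaving out each library.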

Additional observations from a re-analysis of the deposited data

How the results depend on the processing

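No member was called higher and no called member changed sign under any of the 15 alternatives. Of 839 member values under them, 809 kept their side of the threshold, 16 lost a call and 14 gained one. Only the 5 called members could lose a call, so all 16 losses fell on these. Against 5 members called lower, library size alone gave 8, no filter 9, the replicate block 8 and DESeq2 3. Against 4 alpha calls, no filter gave 7. Against 1 beta call, library size alone gave 2 and DESeq2 0. Against 0 gamma calls, library size alone, no filter and the replicate block each gave 1, Pcdhgc4. Leaving out each library in turn gave 1 to 6 members called lower, 1 to 5 in the alpha, 0 in the beta and 0 to 1 in the gamma cluster, and 2187 to 6117 calls among all genes. The counts of 2187 arose without either control, where the lone control is assumed to vary like the other group. Scaling by library size alone moved the median of all genes to -0.08 and gave 1432 higher and 3369 lower calls among all genes, against 2185 and 2577. Per kilobase of all exonic bases the median level was 0.982 in the alpha and 4.12 in the gamma cluster, since shared exons lengthen these genes. The cause of the other shifts was not tested.

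Whether the replicate numbers pair the libraries could not be settled. The correlation of deviations from the group means was 0.037 for replicates 1 and 0.013 for replicates 2. The deviations of 2 controls mirror each other, so these values cannot show whether the libraries are paired. With the replicate block 7061 genes were called against 4762 in the fit without it. Only Yy1 cKO has a replicate 3, so the block keeps that library out of the comparison. The fit that left out Yy1 cKO 3 gave 6117 calls, and the log2 fold change of Pcdhgc4 was -0.41 in both. Members with under 100 counts per library have wide errors, and their changes were often not detectable at this depth.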
